A study of Mus musculus with 6 samples.

Results

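The Hox genes are the homeobox genes of the A, B, C and D clusters. They were taken as every row whose gene symbol is Hox followed by a, b, c or d and a number, with a value in all 6 libraries. There were 40 such rows of 21553 rows with a value, and they carried 39 gene names, because Hoxa3 stood in 2 rows with different Ensembl identifiers. The A cluster gave 12 rows, the B cluster 10, and the C and D clusters 9 each.

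Hox proteins are transcription factors that bind DNA through a homeodomain and set the identity of body segments along the head-to-tail axis. Within a cluster the genes stand in the order of their paralog numbers, and genes toward the 5' end, with high numbers, are as a rule switched on later and further toward the tail. Paralogs, the genes of the same number in different clusters, are similar in sequence and can stand in for each other. In the kidney the Hox11 genes act in the mesenchyme together with Eya1 and Pax2 to switch on Six2, which keeps nephron progenitors, and Gdnf, which attracts the ureteric bud. The Hox10 genes are needed in the same mesenchyme for the stroma to be placed correctly.

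RNA was sequenced from mouse kidneys at E13.5, a stage of branching and nephron formation, with 3 Fat4-/- embryos in the mutant group and 3 Fat4+/+ embryos in the wildtype group. Fat4 is a large cadherin that sits at the cell surface and binds its partners on neighbouring cells. All 6 embryos were of the strain given as C57BL6/6, backcrossed 6 times, and came from a single pregnant female, so the spread between embryos is that of 1 litter. The 2 kidneys of an embryo, which hold ureteric bud, condensing mesenchyme and stroma with little ureter left, went into 1 total RNA library. The labels do not say which part of Fat4 the mutation removes or that equal embryo numbers mark pairs. Levels are given as cRPKM, the authors' corrected form of reads scaled to gene length and sequencing depth, which allows genes to be compared with each other. Fold changes are differences of the mean log2(cRPKM + 1), mutant minus wildtype. In whole kidneys, fewer cells of a type and less RNA per cell cannot be told apart.

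Fat4 itself stood at 16.74, 15.69 and 16.83 cRPKM in the wildtype embryos and at 7.82, 7.20 and 7.49 cRPKM in the mutant embryos. Read totals are unknown. The libraries were alike in breadth, with 17485 to 17705 genes above 0 cRPKM. Kidney markers were present in all 6 libraries. Uroplakin genes of bladder and ureter lining (Upk1a up to 0.99 cRPKM) and listed markers of spinal cord and gonad stayed under 1 cRPKM. Some markers of other neighbouring tissues were above it. The muscle gene Actc1 was highest in wildtype embryo 1, at 7.26 cRPKM against 1.39 to 3.35 in the others. The neuronal gene Tubb3 was highest in wildtype embryo 3, at 4.57 cRPKM against 0.88 to 1.25. The adrenal genes Star and Mc2r lay between 1.81 and 3.02 cRPKM in all 6. The other listed adrenal genes, Cyp11a1, Cyp21a1 and Hsd3b1, did not exceed 0.21 cRPKM. Uty, Kdm5d, Ddx3y and Eif2s3y, which are Y-linked, summed to between 65.3 and 73.0 cRPKM in the wildtype embryos and to 69.6 cRPKM in mutant embryo 1, but were near 0 in mutant embryos 2 and 3. Genotype and the level of Y-linked genes therefore moved together in these libraries, and their part in the Hox values was tested only by a fit with that level as a covariate.

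The Hox genes formed a broad program in the wildtype kidney, led by paralogs 9 to 11. Summed over all 40 rows, Hox expression was 697.8, 757.5 and 765.6 cRPKM in the wildtype embryos and 726.5, 764.7 and 770.4 cRPKM in the mutant embryos, and the groups overlapped. Paralogs 9 to 11 made up 46.8% of the wildtype sum, paralogs 5 to 8 made up 27.1%, paralogs 1 to 4 made up 24.8%, and paralogs 12 and 13 made up 1.24%. By cluster, B gave 30.4% of the wildtype sum, D 30.2%, A 25.2% and C 14.2%. By paralog number, group 10 led with 20.3%, followed by group 9 with 14.2%, group 11 with 12.2% and group 3 with 10.8%.

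**Figure D1:**
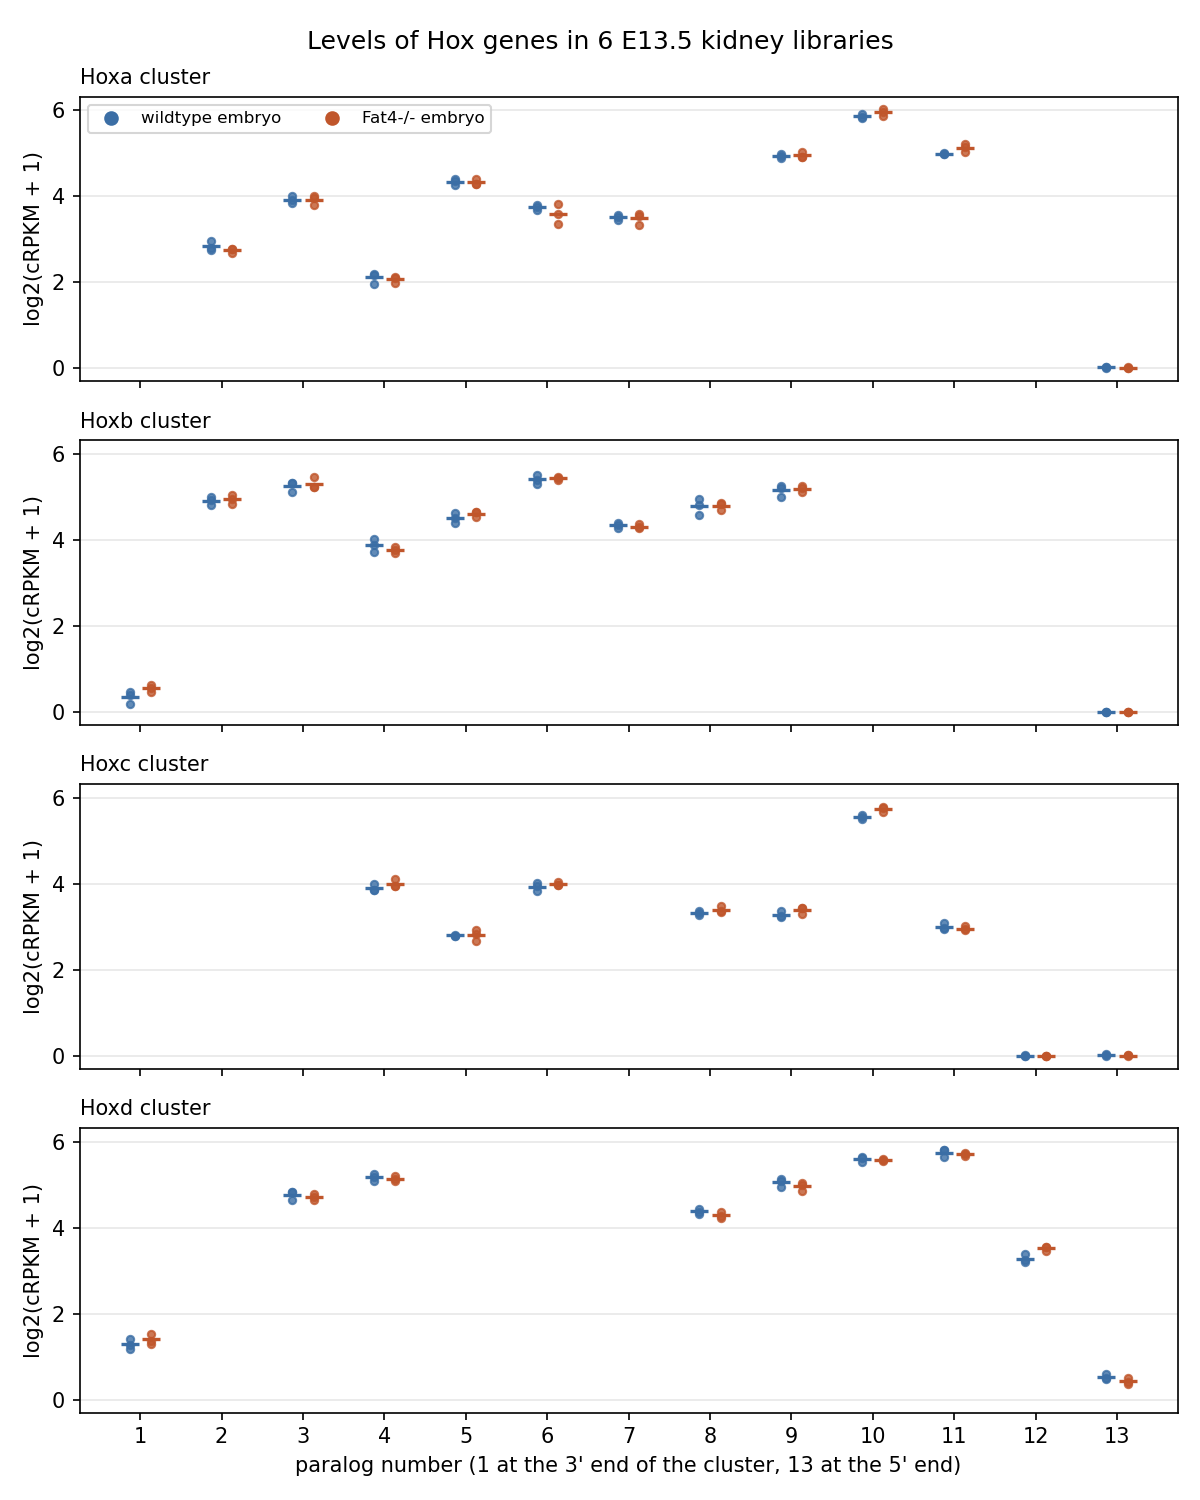
Level of the Hox genes in the 6 libraries, on a log2(cRPKM + 1) axis, against paralog number, with 1 panel per cluster. Blue points are wildtype and orange points are Fat4-/- embryos, horizontal bars are group means, and the second, lower Hoxa3 row is among those not drawn. Levels varied along each cluster. Toward the 5' end Hoxa11, Hoxb9, Hoxc11 and Hoxd12 were the last genes clearly above 0, and the genes beyond them lay at or close to 0.

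Of the 40 rows, 33 passed the minimum of a mean of 1 cRPKM over the 6 libraries and were tested between genotypes with limma. None of the 33 was called at an adjusted p under 0.05: 0 were higher in the mutant, where 0.552% of all 12315 tested genes were called higher, and 0 were lower, where 0.877% of all tested genes were called lower. At an unadjusted limma p under 0.05, 3 Hox genes were higher in the mutant, namely Hoxd12, Hoxc10 and Hoxa11, which is 9.09% against 5.08% of all tested genes, and 0 were lower against 7.97%. The mutant and wildtype values did not overlap for the same 3 genes, which is 9.09% of the tested Hox rows against 7.23% of all tested genes for separation upward, and for 0 downward against 11.0%. The shares upward are near those of all genes. Of the tested Hox rows 18, or 54.5%, had a fold change above 0, against 43.2% of all tested genes.

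The intervals give, gene by gene, the range of differences between genotypes under the fit with genotype alone. The log2 fold changes of the 33 rows ran from -0.16 for Hoxa6 to 0.24 for Hoxd12, with a median of 0.01 against -0.01 over all tested genes. All 33 of the 95% intervals lay within 0.5 of 0 on the log2 scale, and 29 lay within 0.3. Most genes had such intervals: of all 12315 tested genes, 11851 lay within 0.5 and 10527 within 0.3. The lowest bound was -0.39, for Hoxa6, and the highest was 0.37, for Hoxd12. An adjusted p above the threshold does not show that a gene was equal in the 2 genotypes, so the intervals are given. They hold for 1 gene at a time and not for all rows jointly. With the Y-linked level as a covariate, the SE of Hoxa6, the row with the lowest bound, was 0.156 in place of 0.101.

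**Figure D2:**
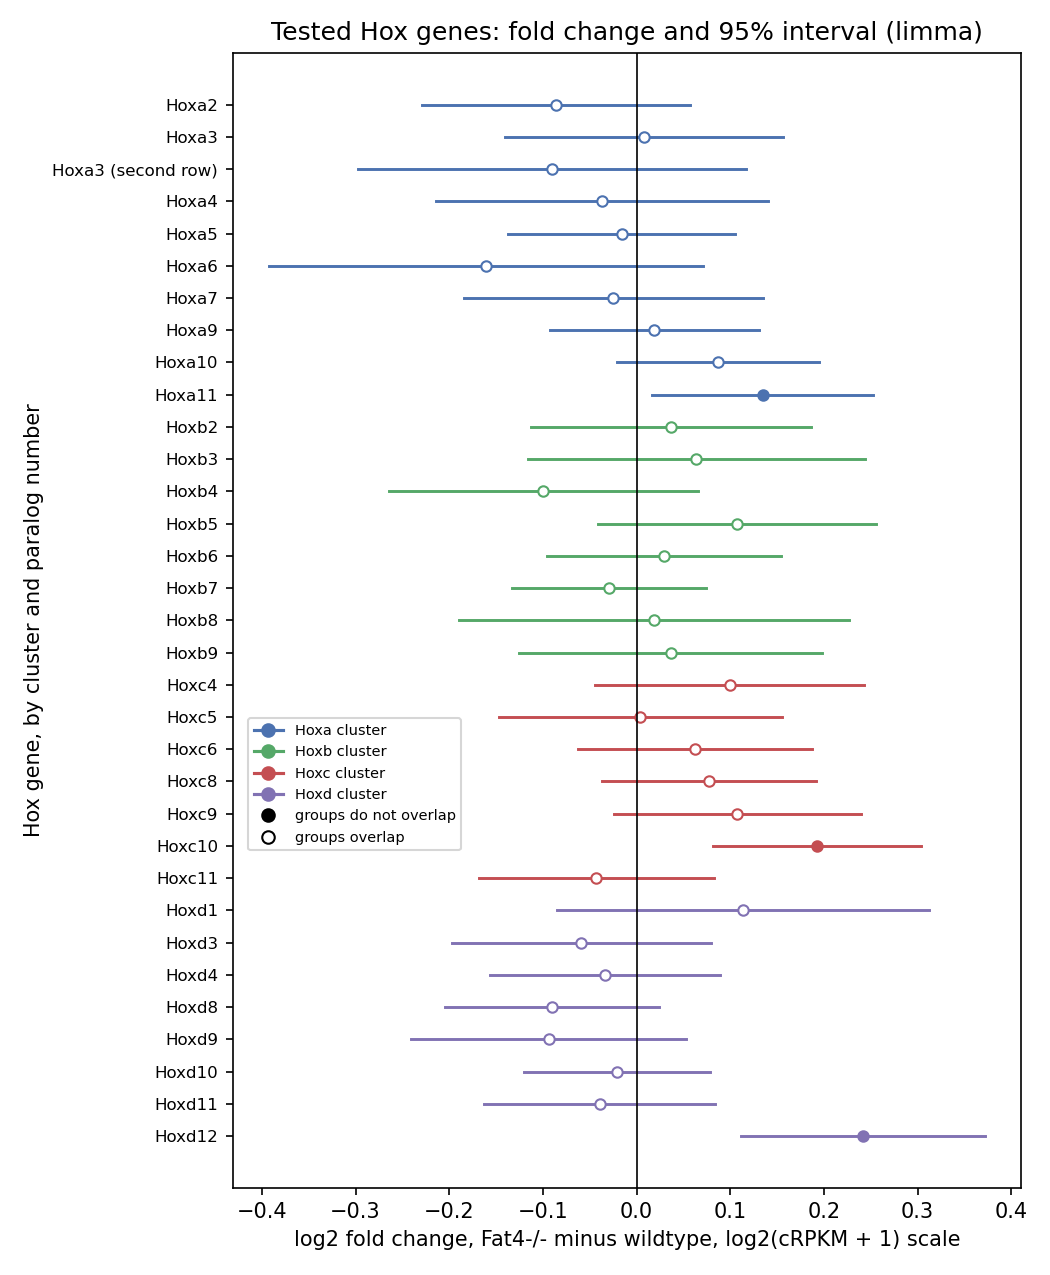
Log2 fold change, Fat4-/- minus wildtype on the log2(cRPKM + 1) scale, for the 33 tested Hox rows in order of cluster and paralog number, with 95% intervals from limma. Filled points mark genes with separate groups, Hoxa11, Hoxc10 and Hoxd12. All intervals stay within 0.5 of 0, as do those of 11851 of all 12315 tested genes.

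Paralog group 11 holds the Hox genes best known for the kidney. Hoxa11, which acts with its paralogs in the nephron-forming mesenchyme, stood at 30.83, 30.59 and 31.37 cRPKM in the wildtype embryos and at 31.66, 36.23 and 34.43 cRPKM in the mutant embryos. Every mutant value was above every wildtype value, with mutant embryo 1 only just so. The means were 30.9 ± 0.400 and 34.1 ± 2.30 cRPKM (SD, n = 3 each), and the log2 fold change was 0.13 (SE 0.0516, 95% interval 0.02 to 0.25, limma adjusted p = 0.311). With the Y-linked level as a covariate the log2 fold change of Hoxa11 was 0.03 (limma adjusted p = 1.00), and without mutant embryo 2 it was 0.09 (limma adjusted p = 0.562). The gene (ENSMUSG00000038210) lies at chr6:52242106-52245810 on the minus strand of GRCm38, where GENCODE places the antisense gene Hoxa11os over it. Whether counting used strand was not stated in the labels, so reads of Hoxa11 and Hoxa11os cannot be told apart.

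Hoxd11, the highest of the Hox11 genes, stood at 48.56, 54.44 and 54.64 cRPKM in the wildtype and at 49.51, 51.06 and 52.56 cRPKM in the mutant embryos. The mutant values lay inside the wildtype range, with a log2 fold change of -0.04 (SE 0.0537, 95% interval -0.16 to 0.08, limma adjusted p = 0.823). Hoxc11, the lowest of the group, stood at 6.84, 7.56 and 6.70 cRPKM in the wildtype and at 7.06, 6.58 and 6.73 cRPKM in the mutant embryos. These groups also overlapped, with a log2 fold change of -0.04 (SE 0.0548, 95% interval -0.17 to 0.08, limma adjusted p = 0.805). The sign for Hoxc11 was not stable, since it was 0.004 with the Y-linked level as a covariate and 0.003 without wildtype embryo 2. Summed over the 3 genes, group 11 gave 90.5 ± 3.71 cRPKM in the wildtype and 91.9 ± 3.21 cRPKM in the mutant embryos (SD, n = 3 each).

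Paralog group 10 was the most abundant. Hoxa10, known for its role in the female reproductive tract, was the highest Hox gene of all, at 56.00, 58.97 and 56.88 cRPKM in the wildtype and 57.75, 63.97 and 61.11 cRPKM in the mutant embryos. These groups overlapped, and the 95% interval of the log2 fold change of 0.09 ran from -0.02 to 0.20. Hoxc10, a gene of the lumbar trunk and hindlimb region, stood at 44.24, 47.80 and 45.70 cRPKM in the wildtype and at 49.82, 54.47 and 53.61 cRPKM in the mutant embryos. All 3 mutant values were above all 3 wildtype values. The Hoxc10 means were 45.9 ± 1.79 and 52.6 ± 2.47 cRPKM (SD, n = 3 each), with a log2 fold change of 0.19 (SE 0.0485, 95% interval 0.08 to 0.30, limma adjusted p = 0.112). With the Y-linked level as a covariate it was 0.11 (limma adjusted p = 1.00). Mutant embryo 1, whose Y-linked level matched the wildtype, was above the wildtype range for Hoxc10 but the lowest of the 3 mutant embryos. The part of the Y-linked level was not tested beyond the covariate fit. Hoxc10 (ENSMUSG00000022484) lies at chr15:102966796-102971893 on the plus strand of GRCm38 and partly overlaps the longer span that GENCODE gives Hoxc5, so the split of reads between them is uncertain. Hoxd10 stood at 45.00 to 49.15 cRPKM in the wildtype and 46.12 to 47.28 cRPKM in the mutant embryos, with the mutant values inside the wildtype range.

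Paralog group 9 was spread widely in level and overlapped between genotypes for each of its 4 genes. The wildtype means were 34.9 ± 3.38 cRPKM for Hoxb9, 32.2 ± 2.28 for Hoxd9, 29.6 ± 0.947 for Hoxa9 and 8.76 ± 0.497 for Hoxc9 (SD, n = 3 each). Hoxd9 had one of the 3 smallest p-values among genes with a negative fold change, at 29.64, 32.82 and 34.07 cRPKM in the wildtype and 27.93, 31.69 and 30.63 cRPKM in the mutant embryos. Its log2 fold change was -0.09 (SE 0.0641, limma adjusted p = 0.611), and -0.20 with the Y-linked level as a covariate (limma adjusted p = 0.855). Hoxc9 stood at 8.49, 8.45 and 9.33 cRPKM in the wildtype and 8.86, 9.78 and 9.90 cRPKM in the mutant embryos, so 2 of 3 mutant values were above the wildtype range.

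**Figure D3:**
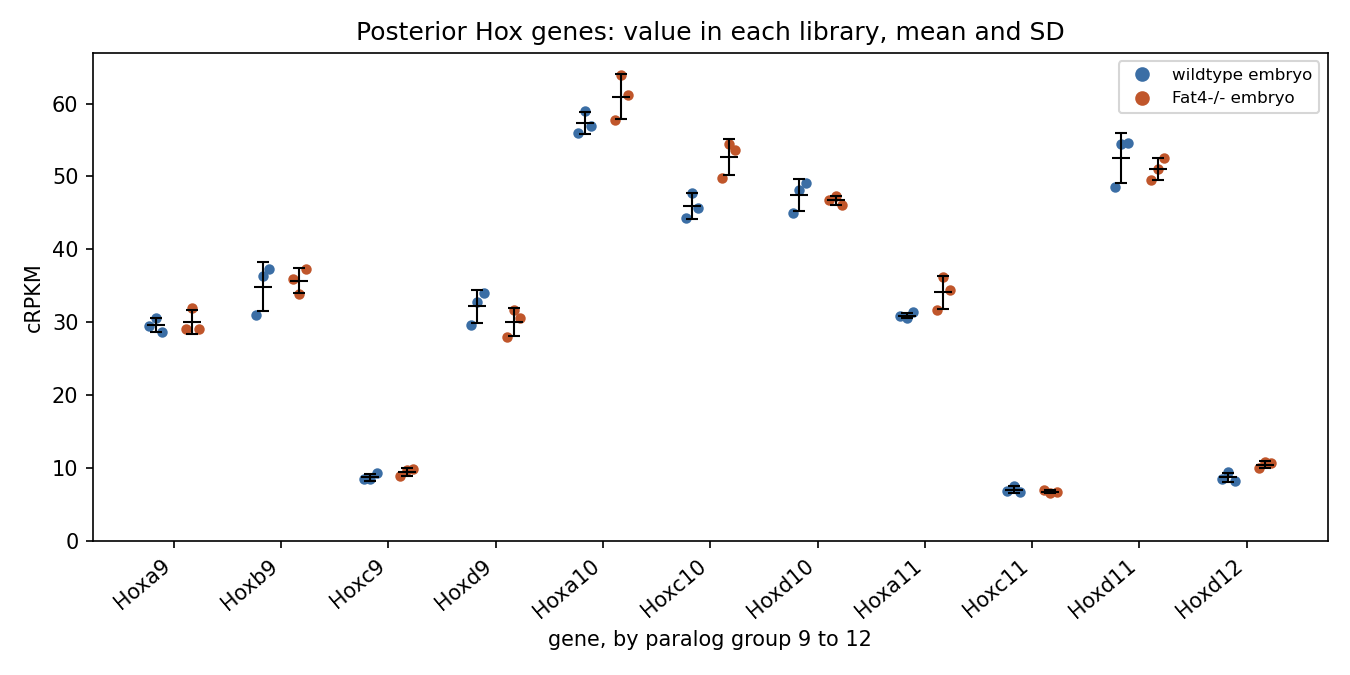
Level in cRPKM, on a linear axis from 0, of the 11 tested genes of paralog groups 9 to 12 in each wildtype (blue) and Fat4-/- (orange) embryo, with the mean and SD of each group of 3. Hoxc10, Hoxa11 and Hoxd12 are the genes whose points do not overlap between genotypes; for the other 8 they do.

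Group 12 was represented in the kidney by Hoxd12 alone, a gene best known from the limb bud. It stood at 8.51, 9.41 and 8.24 cRPKM in the wildtype and at 9.98, 10.79 and 10.69 cRPKM in the mutant embryos. All 3 mutant values were above all 3 wildtype values, with mutant embryo 1 the lowest of the mutant embryos. The means were 8.72 ± 0.613 and 10.5 ± 0.442 cRPKM (SD, n = 3 each), and the log2 fold change of 0.24 (SE 0.0568, 95% interval 0.11 to 0.37) had the smallest adjusted p of the Hox rows, 0.0891 by limma, which missed the threshold. With the Y-linked level as a covariate it was 0.18 (limma adjusted p = 0.928). Hoxd12 (ENSMUSG00000001823) lies at chr2:74675013-74677705 on the plus strand of GRCm38, with no other annotated gene over it.

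Hox expression ended at the 5' end of each cluster, at a different gene in each. In cluster D the wildtype mean went from 52.6 cRPKM for Hoxd11 to 8.72 cRPKM for Hoxd12, a ratio of 6.03, and to 0.440 cRPKM for Hoxd13, a ratio of 19.8 to Hoxd12. In the mutant these ratios of means were 4.87 and 30.6. In cluster C the wildtype mean went from 45.9 cRPKM for Hoxc10 to 7.03 cRPKM for Hoxc11, a ratio of 6.53 against 7.75 in the mutant. The next gene, Hoxc12, was listed at 0 in all libraries except wildtype embryo 3, where it was 0.02 cRPKM. In cluster A the gene next to Hoxa11, at 30.9 cRPKM, was Hoxa13, which did not exceed 0.03 cRPKM in any library, and in cluster B, which lacks the genes between, Hoxb9 at 34.9 cRPKM was followed by Hoxb13, listed at 0 in all 6. Hoxc13 reached at most 0.03 cRPKM. The Hox13 genes are known for the hindgut, genital tubercle, digits and hair. Hoxd13, the only one of them above 0.03 cRPKM, stood at 0.40, 0.42 and 0.50 cRPKM in the wildtype and 0.33, 0.42 and 0.28 cRPKM in the mutant embryos. These groups overlapped, and the gene was below the minimum for testing.

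The bases before the start sites on either side of these steps are shown so that the last expressed and the silent genes can be compared. Each line holds the 250 bases before a RefSeq start on GRCm38.p6, 5' to 3' on the strand of the gene, and Hoxd11 has 2 such starts. For Hoxd13 the RefSeq start, chr2:74668225, lies upstream of the GENCODE start, chr2:74668310. A stretch of bases shortly after that RefSeq start was not found in the GENCODE transcripts of Hoxd13. Capitals mark any match, on either strand, to the TATA box TATAAA, the box named by its letters CCAAT, the core TTTAT of posterior Hox and Cdx proteins, the Meis core TGACAG, the joint Pbx and Hox core TGATNNAT, where N is any base, or the homeodomain core TAATTA.
Hoxa11: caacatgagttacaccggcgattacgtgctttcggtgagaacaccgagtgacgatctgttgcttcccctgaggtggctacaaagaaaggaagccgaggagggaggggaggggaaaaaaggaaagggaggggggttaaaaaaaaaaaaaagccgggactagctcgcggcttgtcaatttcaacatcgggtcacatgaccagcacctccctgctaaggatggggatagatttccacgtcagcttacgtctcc
Hoxa13: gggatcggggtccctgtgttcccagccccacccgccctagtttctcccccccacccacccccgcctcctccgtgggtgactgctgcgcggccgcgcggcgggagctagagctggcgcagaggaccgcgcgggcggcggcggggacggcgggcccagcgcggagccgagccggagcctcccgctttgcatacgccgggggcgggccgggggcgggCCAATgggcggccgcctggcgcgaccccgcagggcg
Hoxd11, 5' start: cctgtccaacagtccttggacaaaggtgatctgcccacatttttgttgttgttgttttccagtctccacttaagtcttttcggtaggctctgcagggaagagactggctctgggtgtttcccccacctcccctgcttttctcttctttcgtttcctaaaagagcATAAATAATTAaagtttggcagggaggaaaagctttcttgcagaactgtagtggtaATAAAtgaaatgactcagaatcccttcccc
Hoxd11, 3' start: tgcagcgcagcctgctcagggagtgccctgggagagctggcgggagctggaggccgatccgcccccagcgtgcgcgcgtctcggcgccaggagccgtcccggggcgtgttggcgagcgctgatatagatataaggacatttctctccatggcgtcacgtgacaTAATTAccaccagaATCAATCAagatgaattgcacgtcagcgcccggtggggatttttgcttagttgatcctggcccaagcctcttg
Hoxd12: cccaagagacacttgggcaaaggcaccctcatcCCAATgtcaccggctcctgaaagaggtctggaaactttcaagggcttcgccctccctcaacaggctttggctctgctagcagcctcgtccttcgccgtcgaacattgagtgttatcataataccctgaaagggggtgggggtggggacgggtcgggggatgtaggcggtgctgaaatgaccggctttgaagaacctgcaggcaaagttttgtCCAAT
Hoxd13: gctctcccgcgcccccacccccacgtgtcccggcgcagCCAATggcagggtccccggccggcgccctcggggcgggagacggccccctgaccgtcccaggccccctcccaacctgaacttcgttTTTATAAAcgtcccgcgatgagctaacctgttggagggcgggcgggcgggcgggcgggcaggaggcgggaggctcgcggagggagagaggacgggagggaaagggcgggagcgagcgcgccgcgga

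These windows are chr6:52245811-52246060 and chr6:52260881-52261130 on the minus strand for Hoxa11 and Hoxa13, and chr2:74679308-74679557, chr2:74682073-74682322, chr2:74674763-74675012 and chr2:74667975-74668224 on the plus strand for the 2 starts of Hoxd11, Hoxd12 and Hoxd13. The windows of Hoxa13 and Hoxd13, which were at or near 0 in the kidney, were rich in the dinucleotide CpG. Hoxb13 and Hoxc13 had no window. Hoxa13 held 35 CpG with a GC content of 80.0%, and Hoxd13 held 31 with 74.4%. Hoxa11 held 13 with 52.0%, Hoxd12 held 10 with 55.6%, and the starts of Hoxd11 held 2 with 44.8% and 20 with 60.4%. Set against the number that base composition would give, the ratio of CpG was 0.875 for Hoxa13, 0.901 for Hoxd13, 0.792 for Hoxa11, 0.520 for Hoxd12, and 0.160 and 0.880 for the Hoxd11 starts, so a high ratio stood before genes of high and of near-zero level alike. Over the 24 windows of the 22 Hox names that the table holds the median ratio was 0.721, against 0.374 over all 32841 windows, and the median GC content was 58.6% against 52.4%.

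Letter matches also occurred before expressed and silent Hox genes. Hoxd11 had TAATTA before each of its starts, which were the only windows of Hox genes with these letters, and TGATNNAT before the 3' start. In the 5' window a TTTAT match on the other strand directly adjoined the TAATTA, and a second one stood closer to the start. Hoxd12 had 2 CCAAT matches and Hoxa13 had 1. Hoxd13 had 1 CCAAT, and a run in which 2 TATAAA matches on opposite strands and 2 TTTAT matches overlapped. Hoxa11 had none of the 6. CCAAT was found in 58.3% of the Hox windows and in 33.9% of all windows, TTTAT in 37.5% and 37.3%, TATAAA in 16.7% and 12.4%, TGATNNAT in 16.7% and 7.69%, TGACAG in 8.33% and 15.9%, and TAATTA in 8.33% and 4.84%. A match is a description of letters in this window and not a binding site.

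Paralogs 5 to 8, the genes of the trunk, were all measured above the minimum and all overlapped between genotypes. Hoxb6 was the highest of these 11 genes, at 38.83, 41.43 and 44.68 cRPKM in the wildtype and 41.13, 42.67 and 43.58 cRPKM in the mutant embryos, and Hoxc5 was the lowest, at 5.98 ± 0.0862 cRPKM in the wildtype (SD, n = 3). Hoxb7, whose regulatory sequence is widely used to drive transgenes in the ureteric bud, stood at 18.51, 19.38 and 20.06 cRPKM in the wildtype and 18.35, 19.62 and 18.75 cRPKM in the mutant embryos. Hoxb7 had a log2 fold change of -0.03 with a 95% interval from -0.13 to 0.07. Hoxa5, known for lung development, stood at 19.3 ± 1.05 and 19.1 ± 0.919 cRPKM in wildtype and mutant (SD, n = 3 each). The other wildtype means of this span were 26.7 cRPKM for Hoxb8, 21.8 for Hoxb5, 19.8 for Hoxd8, 14.3 for Hoxc6, 12.5 for Hoxa6, 10.5 for Hoxa7 and 9.02 for Hoxc8.

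Hoxa6 and Hoxd8 had the other small p-values among genes with a negative fold change, and neither passed. Hoxd8 stood at 19.69, 18.86 and 20.70 cRPKM in the wildtype and 18.24, 19.42 and 17.81 cRPKM in the mutant embryos, with a log2 fold change of -0.09 (SE 0.0497, limma adjusted p = 0.508). Hoxa6 stood at 11.86, 12.55 and 12.97 cRPKM in the wildtype and 11.09, 9.25 and 13.05 cRPKM in the mutant embryos, with a log2 fold change of -0.16 (SE 0.101, limma adjusted p = 0.571). The Hoxa6 value rests on mutant embryo 2, the lowest, while mutant embryo 3 was above every wildtype embryo. Without mutant embryo 2 the log2 fold change of Hoxa6 was -0.05 (limma adjusted p = 0.854). Without mutant embryo 3 it was -0.27 (limma adjusted p = 0.253). These were the ends of its range over the alternatives tried. Hoxa6 lies inside the span that GENCODE gives Hoxa3 and under the antisense gene Hoxaas3, so its reads are uncertain in origin.

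Paralogs 1 to 4, the anterior genes of hindbrain, pharynx and neck, were present at high levels in groups 2 to 4 and low for Hoxd1 and Hoxb1 of group 1. Hoxb3 stood at 33.69, 38.94 and 38.88 cRPKM in the wildtype and 36.58, 36.93 and 43.28 cRPKM in the mutant embryos. Hoxd4 stood at 35.0 ± 1.97 cRPKM, Hoxb2 at 29.2 ± 1.83, Hoxd3 at 26.3 ± 1.90, Hoxa3, which is needed for thymus and parathyroid, at 14.1 ± 0.815, Hoxc4 at 14.0 ± 0.913 and Hoxb4 at 13.7 ± 1.44 cRPKM in the wildtype (SD, n = 3 each). Lower were Hoxa2 at 6.15 ± 0.539 and Hoxa4 at 3.35 ± 0.389 cRPKM. All 11 tested rows of this span overlapped between genotypes, with log2 fold changes from -0.10 for Hoxb4 to 0.11 for Hoxd1. The second Hoxa3 row (ENSMUSG00000059723), whose identifier was not found in GENCODE M21, stood at 2.01, 2.05 and 2.48 cRPKM in the wildtype and 2.09, 1.66 and 2.22 cRPKM in the mutant embryos, far below the first row.

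Hoxd1 and Hoxb1, of paralog group 1, were low in the kidney. Hoxd1 stood at 1.27, 1.67 and 1.41 cRPKM in the wildtype and 1.47, 1.58 and 1.90 cRPKM in the mutant embryos, and these overlapped. Hoxb1, which patterns the hindbrain, stood at 0.32, 0.38 and 0.15 cRPKM in the wildtype and 0.47, 0.55 and 0.39 cRPKM in the mutant embryos, with every mutant value above every wildtype value. The gap was narrow, from 0.38 cRPKM as the highest wildtype value to 0.39 cRPKM as the lowest mutant value. Hoxb1 was under the minimum for testing. Without that minimum, Hoxb1 was among 5 of 39 Hox rows, and among 2273 of all genes, with an unadjusted limma p under 0.05. The smallest limma adjusted p of any Hox row was then 0.158, for Hoxc10.

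Ordered by wildtype mean, the Hox rows formed a gradual series in which most neighbours could not be separated. Hoxa10 at 57.3 cRPKM came first, and its lowest wildtype value was above the highest of Hoxd11, at 52.6 cRPKM. From Hoxd11 through Hoxd10, Hoxc10, Hoxb6, Hoxb3, Hoxd4, Hoxb9 and Hoxd9 to Hoxa11 at 30.9 cRPKM, each gene overlapped the next in its range over the 3 wildtype embryos. Further down, ranges of neighbours did not overlap at Hoxa11 to Hoxa9, Hoxd3 to Hoxb5, Hoxa5 to Hoxc6 and Hoxa6 to Hoxa7. The same held for Hoxa7 to Hoxc8 and Hoxd12 to Hoxc11. It also held along Hoxc5 at 5.98 cRPKM, Hoxa4, the second Hoxa3 row and Hoxd1 at 1.45 cRPKM. Such a gap could be very narrow: the lowest wildtype value of Hoxa11 was 30.59 cRPKM and the highest of Hoxa9 was 30.58 cRPKM. Paralogs did not share a level: within group 10 the wildtype means lay between 45.9 and 57.3 cRPKM, but within group 11 they ran from 7.03 to 52.6 and within group 4 from 3.35 to 35.0 cRPKM.

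By cluster, the C genes were placed slightly upward in the mutant and the D genes slightly downward, apart from Hoxd12 and Hoxd1. The median log2 fold change was 0.08 in cluster C, where 6 of 7 tested genes were above 0, and 0.03 in cluster B, where 6 of 8 were. It was -0.02 in cluster A with 4 of 10 above 0, and -0.04 in cluster D with 2 of 8 above 0. Over all tested genes the median was -0.01. The sum of the C cluster was 101.5, 109.5 and 104.1 cRPKM in the wildtype and 110.9, 117.4 and 115.5 cRPKM in the mutant embryos, and these did not overlap. Without Hoxc10 the C sum was 57.2, 61.7 and 58.4 cRPKM in the wildtype against 61.0, 62.9 and 61.9 cRPKM in the mutant embryos, which did overlap. The sums of clusters A, B and D overlapped between genotypes. By position in the cluster, the median was -0.03 for paralogs 1 to 4, 0.00 for paralogs 5 to 8 and 0.04 for paralogs 9 to 13. These medians carry no test, and genes of a cluster are not replicates.

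Much of the spread of the Hox genes lay between embryos of the same genotype. Wildtype embryo 1 was the lowest of the 3 wildtype embryos for 23 of 33 tested Hox rows, or 69.7%, while it was the lowest for 31.3% of all tested genes. It was the highest for 1 Hox row, against 39.4% of all tested genes. Its mean deviation from the wildtype mean was -0.08 over the tested Hox rows on the log2(cRPKM + 1) scale, and -0.13 over cluster B, where wildtype embryo 3 was at 0.11. Over all tested genes the library means lay between -0.02 and 0.01. Among mutant embryos the Hox mean deviation from the wildtype mean was -0.03, 0.02 and 0.05 for embryos 1, 2 and 3. The median residual SD of the tested Hox rows was 0.0830 on the log2 scale, against 0.0641 over the 10447 tested genes in the same range of level. Without wildtype embryo 1 the median Hox fold change was -0.04, and 12 of 33 rows were above 0 in place of 18.

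**Figure D4:**
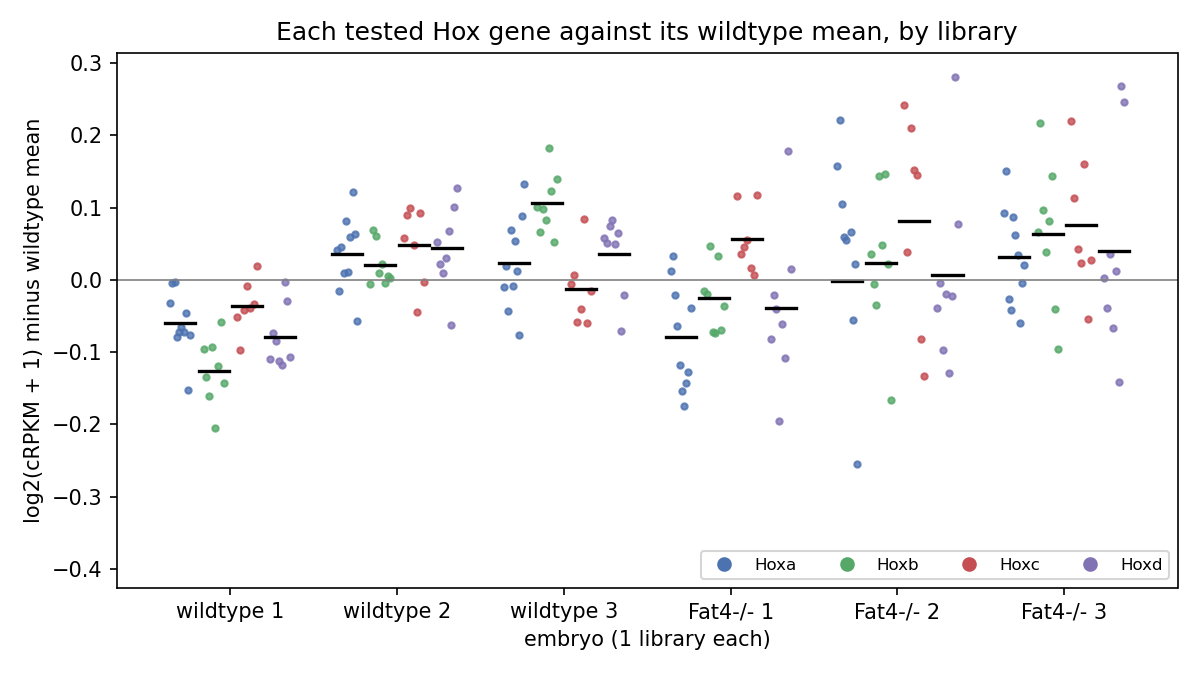
Deviation of each of the 33 tested Hox rows from its wildtype mean, in log2(cRPKM + 1) units, in each library, coloured by cluster, with a black bar for the mean of each cluster. Wildtype embryo 1 lies below the others in all 4 clusters among wildtype embryos, and the C cluster means of the 3 mutant embryos lie between 0.06 and 0.08.

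Hox proteins bind DNA with Pbx and with Meis or Pknox cofactors, which are homeodomain proteins themselves. Of the 9 listed cofactors limma called 0. At an unadjusted p under 0.05 it had 2 higher and 3 lower, the same 5 whose groups did not overlap. Over all tested genes limma had 5.08% higher and 7.97% lower at that p. Groups did not overlap for 7.23% of all tested genes upward and 11.0% downward. Pbx2 stood at 68.81, 72.25 and 69.46 cRPKM in the wildtype and 76.14, 81.74 and 77.67 cRPKM in the mutant embryos, with a log2 fold change of 0.16 (SE 0.0429, limma adjusted p = 0.135). Meis3 was also separate upward, at 0.23 (limma adjusted p = 0.162). Over the list 5 of 9 fold changes were above 0, with a median of 0.02.

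Polycomb proteins keep Hox genes silent and Trithorax proteins keep them active. Of the Polycomb genes 14 were tested, with 0 called by limma in either direction and 2, Cbx2 and Phc2, higher at an unadjusted p under 0.05. Over all tested genes limma had 5.08% higher and 7.97% lower at that p. Of the Trithorax group and histone H3 lysine 27 demethylases 8 were tested, again with 0 called by limma and 1, Kdm6a, higher at an unadjusted p under 0.05. Kdm6a, an X-linked demethylase of that histone mark, stood at 12.13 cRPKM in mutant embryo 1, within the wildtype range of 11.53 to 12.52, and at 17.56 and 18.65 cRPKM in mutant embryos 2 and 3, the embryos without Y-linked expression. Of 13 listed upstream regulators 9 were tested and limma called 0, with 1 higher and 1 lower at an unadjusted p under 0.05. Rarb, a retinoic acid receptor, came nearest, at 24.03, 22.93 and 23.41 cRPKM in the wildtype and 20.59, 20.51 and 20.00 cRPKM in the mutant embryos, which did not overlap (log2 fold change -0.19, SE 0.0379, limma adjusted p = 0.0529). The Cdx genes, which switch on trunk and tail Hox genes in the early embryo, were at or near 0. Of 21 listed genes that flank the clusters 17 were tested and limma called 0, with 1 higher at an unadjusted p under 0.05 and a median log2 fold change of 0.01; Evx1 and Evx2, next to the 5' ends of clusters A and D, did not exceed 0.02 cRPKM.

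The kidney genes known to act with or downstream of Hox11 were set beside the Hox11 genes. All 9 listed genes had a fold change above 0, against 43.2% of all tested genes, with a median of 0.17. Of the 9, 1 rose at a limma adjusted p under 0.05, against 0.552% of all tested genes called higher. That gene was Eya1, a partner of Hox11 proteins, at 33.53, 36.04 and 33.67 cRPKM in the wildtype and 46.65, 46.98 and 47.96 cRPKM in the mutant embryos (log2 fold change 0.45, SE 0.0415, limma adjusted p = 0.00418). Six2, the Hox11 target that maintains nephron progenitors, stood at 88.16, 102.74 and 89.18 cRPKM in the wildtype and 112.05, 122.64 and 138.91 cRPKM in the mutant embryos, which did not overlap (log2 fold change 0.41, limma adjusted p = 0.0673). Gdnf was separate upward as well, with 24.1 ± 1.78 and 26.8 ± 1.08 cRPKM (SD, n = 3 each), and Pax2 overlapped. No test compared these fold changes with those of the Hox11 genes. Among other homeobox genes of the same class only Meox1 and Meox2 of 10 listed were high enough to test, and Meox2 rose (log2 fold change 0.33, SE 0.0525, limma adjusted p = 0.0268).

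Cell type markers moved between the genotypes in the same libraries as these Hox values. The 7 nephron progenitor markers include Eya1 and Six2. They summed to between 249.1 and 291.3 cRPKM in the wildtype and between 308.7 and 350.8 cRPKM in the mutant embryos. Of these 7, limma called 2 higher. Over all tested genes it called 0.552% higher and 0.877% lower, and 7.97% were lower at an unadjusted p under 0.05. The 6 cortical stroma markers summed to between 424.1 and 465.4 cRPKM in the wildtype and between 401.9 and 423.9 cRPKM in the mutant. Pdgfra alone of these 6 was called lower. The 5 medullary stroma markers summed to between 47.6 and 61.5 against between 43.2 and 44.4 cRPKM, and Alx1 alone was called lower. In that list 4 of 5 fold changes were below 0. Tnc went the other way, at 9.65 to 11.18 cRPKM in the wildtype and 11.34 to 12.86 cRPKM in the mutant embryos. Of the 8 ureteric bud markers 0 were called by limma and 3 were lower at an unadjusted p under 0.05, and their sums were between 178.5 and 213.5 against between 178.7 and 184.5 cRPKM. For the ureter, bladder and Wolffian duct list limma called 0 of 3 tested genes, with 1 lower at an unadjusted p under 0.05. The list summed to 53.2 to 62.1 cRPKM in the wildtype against 46.4 to 51.8 cRPKM in the mutant. Upk2 and Upk3a did not exceed 0.06 cRPKM and Upk1b did not exceed 0.17 cRPKM, while Upk1a lay between 0.80 and 0.99 cRPKM. For wildtype embryo 1, where most Hox rows were lowest, the early nephron and ureteric bud lists deviated from the wildtype mean by -0.18 and -0.12 and the cortical stroma list by 0.15 on the log2 scale. The cortical stroma value came mostly from Dcn, at 36.47 cRPKM against 19.07 and 13.93 cRPKM in wildtype embryos 2 and 3. Pdgfra and Tcf21 were also highest there, but Foxd1, Pdgfrb and Aldh1a2 lay between the values of the other wildtype embryos. For Actc1, the single gene of the muscle and limb list above the minimum, the deviation of wildtype embryo 1 was 0.68. The part of the cell makeup in the Hox values was not tested.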

How the data were processed

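The authors deposited 1 table of RPKM values in a corrected form that is named cRPKM per the file headers, which also say that reads had been trimmed. Bowtie and mm9 are named in the submitters' processing notes, their versions and the way the correction was made are not given in the sources used here. Columns were matched to samples by the header that each sample's description quotes, and all 6 were used. Of 22667 rows, 1114 hold no value.

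RPKM are not counts, so log2(cRPKM + 1) was tested with limma 3.58.1 in R 4.3.3 (lmFit, trended eBayes, 2-sided, with no term but genotype) for the 12315 rows with a mean of at least 1 cRPKM, and p-values were adjusted by Benjamini-Hochberg over all of them, with calls at 0.05. This scale understates fold changes of low genes. The procedure was tested on simulated data. Read totals, and so counting error, are unknown; precision is given by the 3 embryos per genotype, and an exact permutation test of 1 gene could not go below p = 0.1. The p-values measure the spread between embryos of 1 litter. Fold change, SE and adjusted p are given for Hox rows past the threshold, for the 3 with the smallest p in each direction and for the Hox11 genes; other genes were named after their values were seen, and results of a few genes are not reported here. The Hox rows and gene lists were chosen with earlier results of these data known.

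Gene positions are from GENCODE M21 on GRCm38, a later build than that of the values, with 38 rows joined by identifier, Hoxd4 by symbol and 1 Hoxa3 row not joined. Of the joined rows 11 overlap another Hox row on the same strand and 14 an antisense gene, so their values are uncertain where reads could be split. Upstream sequences are from RefSeq on GRCm38.p6 and cover 22 of the 39 names; motif shares are over all windows without ambiguous bases. Alternatives were other pseudocounts, filters, scalings and variance models, library weights, the Y-linked level as a covariate, the embryo number as a block, and leaving out each embryo.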

Additional observations from a re-analysis of the deposited data

How the results depend on the processing

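No Hox row was called in either direction under 15 of the 16 alternatives tried. The exception was the replicate block by embryo number, under which Hoxc10 was called higher, so the count was 1 in place of 0 (limma adjusted p = 0.0469). With the block, 7 of 33 Hox rows had an unadjusted limma p under 0.05, 6 of them higher. So did 2144 of all 12315 tested genes, against 1607 without the block. Whether the numbers pair the embryos is not settled. The labels do not say so, though libraries of equal number have adjoining names in the headers. Deviations of same-numbered embryos correlated across genes at 0.0985, 0.205 and 0.277, and those of other pairs at -0.373 to 0.227, the highest being wildtype embryo 1 with mutant embryo 2. The cause of the added call was not tested. Hoxd12 ranged over the alternatives from 0.18 to 0.29 (adjusted p 0.0603 to 0.928), Hoxc10 from 0.11 to 0.23 (0.0469 to 1.00) and Hoxa11 from 0.03 to 0.19 (0.160 to 1.00). Hoxc11 turned from -0.043 to 0.0042 with the Y-linked level as a covariate and to 0.0033 without wildtype embryo 2, and leaving out each embryo in turn it ranged from -0.073 to 0.0033. The median Hox log2 fold change stayed between -0.044, without wildtype embryo 1, and 0.039, without mutant embryo 1. Over all tested genes the calls were less stable. The 68 genes called higher became 10 with no filter on low values, 1 with the Y-linked covariate, 109 with the replicate block and 7 to 53 when an embryo was left out, with 7, 9 and 10 without mutant embryo 2, 3 or 1 and 26 and 41 without wildtype embryo 1 or 2. The 108 called lower became 22 with no filter, 61 with a minimum of 5 cRPKM, 1 with the Y-linked covariate, 164 with the block and 17 to 87 when an embryo was left out, with 17, 21 and 24 without mutant embryo 2, 3 or 1 and 45 without wildtype embryo 1. Mutant embryo 1 alone joins the mutant genotype to Y-linked expression, so the covariate fit rests on it for the genotype term; it changed the sign of 7 Hox rows. Without read totals, the counting error of levels under 1 cRPKM is unknown.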
